A study of Mus musculus with 2 samples.

Results

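The genes described here encode 10 enzymes that build and edit heparan sulfate. They were taken by name from the RPKM tables of WT and Kai1-/- perivascular cells, 10 of 20211 gene symbols, and each stood on a single row of both tables. Of the encoded enzymes, 8 assemble or modify the chain inside the Golgi, and the other two, SULF1 and SULF2, act on finished chains outside the cell. A gene was kept when its RPKM averaged 1 or more across the libraries, which 10068 symbols including all 10 enzymes reached.

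Heparan sulfate is a long sugar chain attached to core proteins such as syndecans and glypicans at the cell surface and perlecan in the basement membrane. EXT proteins lengthen the chain, and the NDST, GLCE, HS2ST and HS6ST enzymes then add sulfate groups or change the sugar backbone in patches. FGFs, VEGF, PDGF and Wnt proteins bind to these patches, so that the sulfate pattern affects how vascular cells sense growth factors. The SULF enzymes remove 6-O-sulfate from the finished chain and in that way change which ligands it holds.

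Each genotype was measured in 1 library of cultured perivascular cells from the mouse aorta on a C57BL/6 background, wild type (WT) in the first and Kai1 KO, here Kai1-/-, in the second. Kai1 is the Cd82 gene, which encodes a tetraspanin of the cell membrane. Neither library had any other treatment named in the labels, and both genotypes were grown in DMEM with serum. The methods give adult mice of either sex for the study as a whole, and which and how many mice gave these cells and how the allele was made are not given in the sources used here. Differences between the libraries therefore include those between animals, cultures and preparations, which cannot be told apart from genotype, and no test across genes was possible. RPKM corrects read counts for transcript length and library size, so levels of different genes can be set side by side. In bulk RNA, fewer cells expressing a gene and less RNA per cell cannot be told apart.

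Cd82 itself had an RPKM of 12.8 in WT and 2.62 in Kai1-/- cells, 20.5% of WT. Which part of the gene the allele lacks is not given in the sources used here, so these values do not verify the deletion. The low values of the tables fell on steps of whole reads, from which about 29500000 reads were estimated behind the WT library and 26700000 behind the Kai1-/- library. Ribosomal protein genes took up 37.6% of the summed RPKM in WT and 49.1% in Kai1-/- cells, and the median log2 ratio of all genes kept was 0.08. All 4 Y-linked genes looked up were above 0 in WT and listed at 0 in Kai1-/- cells, so the sex of the cells cannot be told apart from genotype. Among 10 mural cell markers, Acta2, the smooth muscle actin, had the highest RPKM, 3823 in WT and 2580 in Kai1-/- cells. Pdgfrb and Cspg4, which encodes NG2, had 44.7 and 15.4 in WT and 31.6 and 8.27 in Kai1-/- cells. Rgs5 and Myh11 were low or near 0, with an RPKM of 0.0630 and 2.96 in WT and 0.233 and 0.346 in Kai1-/- cells. The 8 fibroblast and adventitial markers summed to 3120 RPKM in WT and 1490 in Kai1-/- cells, of which Ly6a gave 1354 and 569. The 7 kept of these and the 7 kept mural markers were all lower in Kai1-/- cells, with median log2 ratios of -1.15 and -1.04. Of all 10068 genes kept, 4522 had a ratio below 0. More than 2-fold lower were 5 of the fibroblast and adventitial and 4 of the mural markers, against 7.81% of all genes kept. Of these, Pdgfra, Pi16, Dpt, Myh11 and Mcam had an RPKM below 1 in Kai1-/- cells and passed the filter only through WT. The counts of lower markers therefore depend in part on the filter. Among the mural markers not kept, Rgs5 was higher and Des and Notch3 were lower in Kai1-/- cells. The lowest mural ratio was -3.78 for Mcam, with an RPKM of 4.90 in WT and 0.264 in Kai1-/- cells. The highest RPKM of 8 endothelial markers was 0.413 in WT, and all 8 were listed at 0 in Kai1-/- cells. The 8 macrophage markers summed to 16.5 RPKM in WT and 4.23 in Kai1-/- cells, mostly from Csf1r. The exons of Csf1r share 871 bases with Hmgxb3 on the opposite strand, which had an RPKM of 6.61 in WT and 5.01 in Kai1-/- cells. Lyz2 had 3.44 and 1.09 and Cd68 1.17 and 0.464, while Ptprc, Emr1, Itgam, Mpeg1 and Mrc1 had at most 0.0408 in either library. The highest RPKM among 6 epithelial markers was 0.641. The part of the shifts in cell markers in the results below was not tested.

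The promoters of the 6-O-sulfate enzymes are shown because HS6ST1 adds the sulfate that the SULF enzymes take off. They come from RefSeq on build GRCm38.p6, not the mm9 build of the RPKM tables, and run from 250 bases before to 50 after a transcription start, 5′ to 3′ on the strand of the gene. The table held 6 of the 10 genes, and Sulf1, Ext1, Extl3 and Ndst1 were not matched in it. Sulf2 has a start on the minus strand within chr2:166155634-166155933 and another within chr2:166155236-166155535, and Hs6st1 starts within chr1:36068150-36068449 on the plus strand. Capitals mark motifs searched on both strands. The letters of the TATA box searched were TATAAA. The box bound by nuclear factor Y was searched as CCAAT. Binding sites of the Sp family, called GC boxes, were searched as GGGCGG. For basic helix-loop-helix factors the E-box was searched as CACGTG. The AP-1 site of Fos and Jun proteins was searched as TGANTCA, with N for any base.
Sulf2, upstream start: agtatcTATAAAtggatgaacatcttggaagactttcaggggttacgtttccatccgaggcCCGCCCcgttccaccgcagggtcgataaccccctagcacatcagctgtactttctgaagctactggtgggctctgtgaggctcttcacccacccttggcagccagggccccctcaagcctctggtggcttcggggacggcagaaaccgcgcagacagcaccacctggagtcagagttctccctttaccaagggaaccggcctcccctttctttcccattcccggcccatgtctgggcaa
Sulf2, downstream start: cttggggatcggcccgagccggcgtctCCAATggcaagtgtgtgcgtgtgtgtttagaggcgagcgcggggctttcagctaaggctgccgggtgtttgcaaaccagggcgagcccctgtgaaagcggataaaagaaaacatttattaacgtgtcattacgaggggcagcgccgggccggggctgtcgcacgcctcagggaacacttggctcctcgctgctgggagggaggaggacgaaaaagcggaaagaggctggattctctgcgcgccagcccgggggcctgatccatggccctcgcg
Hs6st1: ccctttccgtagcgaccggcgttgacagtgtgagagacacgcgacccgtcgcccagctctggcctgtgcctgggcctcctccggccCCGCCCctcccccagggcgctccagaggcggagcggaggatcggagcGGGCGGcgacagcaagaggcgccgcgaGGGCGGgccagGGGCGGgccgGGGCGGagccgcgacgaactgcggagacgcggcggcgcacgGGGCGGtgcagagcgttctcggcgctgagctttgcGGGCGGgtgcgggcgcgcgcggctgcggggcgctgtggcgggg

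The upstream Sulf2 window held 1 match to the TATA box letters and 1 GC box, and the downstream window 1 CCAAT box. The TATAAA match lay near the upstream end of its window, far from the transcription start. The Hs6st1 window had a GC content of 78.0% and 7 GC boxes. Of 32851 promoter windows of the same length, 13.6% held the TATA box, 37.4% the CCAAT box, 35.7% the GC box, 7.15% the E-box and 7.81% the AP-1 site, and the 3 windows printed held neither of the last pair. These letter matches describe the windows and say nothing of which factors bind there.

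The comparison of the libraries asked how perivascular cells labelled Kai1 KO differ from WT cells in transcript levels. Of the 10 genes, Sulf1 and Ext1 were more than 2-fold lower in Kai1-/- than in WT cells and none was more than 2-fold higher. Among all genes kept, 7.81% lay past the line on the lower side and 7.98% on the higher side. This split depended on scaling, with 18.0% lower and 2.84% higher when library sums were made equal and 18.4% and 2.76% with Gapdh made equal. A filter on RPKM changes no ratio, so Sulf1 and Ext1 necessarily remained the 2 lower genes under the other filters. Without a filter, 9.29% of all genes were lower and 5.96% higher. Among genes averaging 5 or more, which 7 of the enzymes did, the shares were 5.37% and 7.84%. Sulf1 stood at 28.4% and Ext1 at 48.5% of the WT level, and the other 7 synthesis genes at 57.0% to 87.6%. Sulf2, the close relative of Sulf1, stood at 132% of WT with the values as deposited and was slightly below WT once the library sums or Gapdh were made equal. The median log2 ratio of the 10 genes was -0.41, and 9 of them lay below the median of all genes kept.

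**Figure D1:**
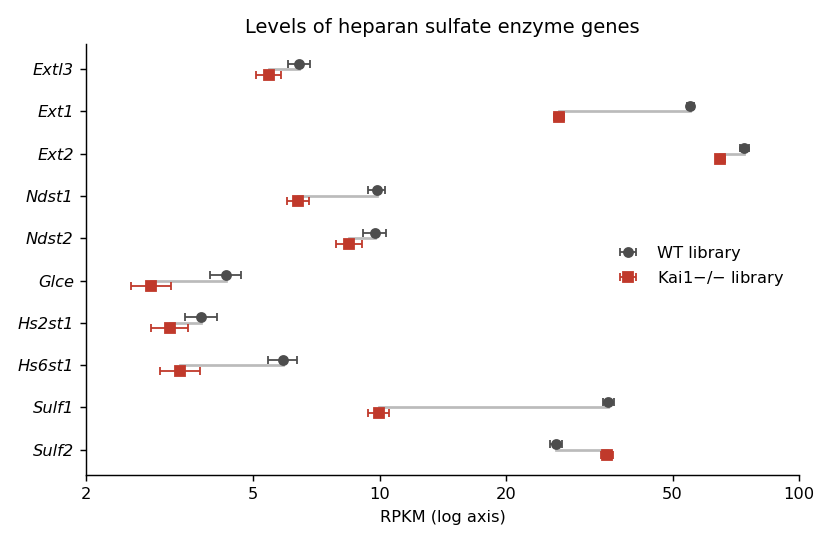
RPKM on a log axis of the 10 genes in the WT library (grey circles) and the Kai1-/- library (red squares), ordered from chain synthesis at the top to the Sulf enzymes at the bottom; bars are 95% counting intervals from estimated reads. Sulf1 goes from 35.1 to 9.97 and Ext1 from 55.1 to 26.7, while Sulf2 alone has its red square to the right at 34.9, an order that turns when library sums or Gapdh are made equal.

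Extl3 encodes the transferase that attaches the first glucosamine of the heparan sulfate chain. Its RPKM was 6.42 in WT and 5.44 in Kai1-/- cells, a log2 ratio of -0.23. Log2 ratios here are of Kai1-/- to WT after adding 0.1 to each RPKM. The 95% interval that counting error alone gives to the ratio without the added 0.1 ran from -0.37 to -0.11. The difference exceeded counting error as deposited, and the log2 ratio was -0.71 with library sums made equal and -0.72 with Gapdh made equal, still within 2-fold.

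Ext1 and Ext2 encode the subunits of the polymerase that lengthens the chain, and both are known as genes of hereditary bone overgrowths. Ext2, on chromosome 2 from 93535788 to 93662725 of mm9, was the highest of the 10 genes in both libraries, with an RPKM of 74.2 in WT and 65.0 in Kai1-/- cells. Its log2 ratio was -0.19, with a counting interval from -0.24 to -0.14. Ext2 lies 232 kb from Cd82 on the same chromosome. Ext1, on chromosome 15 from 52895593 to 53177714, was the next highest in WT, with an RPKM of 55.1 against 26.7 in Kai1-/- cells. Its log2 ratio was -1.04, with a counting interval from -1.09 to -0.997, and 7.34% of all genes kept had a lower ratio. Ext1 thus lay just past the 2-fold line, and its counting interval reached across that line.

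The RPKM of Ext1 was 0.743 times that of Ext2 in WT and 0.411 times in Kai1-/- cells, with counting intervals from 0.722 to 0.764 and from 0.396 to 0.427. A ratio within a library does not depend on how the libraries are scaled. The subunits of the polymerase were therefore further apart in transcript level in Kai1-/- cells.

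Ndst1 and Ndst2 encode enzymes that remove the acetyl group of glucosamine and put sulfate in its place, the step that opens the chain to later modification. Ndst1 had an RPKM of 9.84 in WT and 6.41 in Kai1-/- cells, a log2 ratio of -0.61 with a counting interval from -0.73 to -0.51. Ndst2 had 9.73 in WT and 8.48 in Kai1-/- cells, a log2 ratio of -0.20 with an interval from -0.34 to -0.06. Both genes were at the same level within counting error in WT, where Ndst1 made up 50.3% of their sum. In Kai1-/- cells Ndst1 made up 43.0%, with an interval from 40.8% to 45.4%. Ndst3 and Ndst4, the remaining family members, had an RPKM of at most 0.0291 in either library.

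Glce encodes the epimerase that turns glucuronic acid into iduronic acid, and Hs2st1 encodes the enzyme that then sulfates the iduronic acid. Glce had an RPKM of 4.29 in WT and 2.86 in Kai1-/- cells, a log2 ratio of -0.57 with a counting interval from -0.79 to -0.39. Hs2st1, the lowest of the 10 genes in WT, had 3.75 and 3.16, a log2 ratio of -0.24 with an interval from -0.44 to -0.05. Glce stood above Hs2st1 in WT and below it in Kai1-/- cells, but their counting intervals overlapped in both libraries, so that their order was not resolved.

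Hs6st1 encodes a 6-O-sulfotransferase, the enzyme whose product the SULF enzymes take off again. Its RPKM was 5.88 in WT and 3.35 in Kai1-/- cells, 57.0% of WT. The log2 ratio was -0.79, the lowest among the 8 synthesis genes after Ext1, with a counting interval from -1.01 to -0.61. It rests on an estimated 610 reads in WT and 315 in Kai1-/- cells, the fewest of the 10 genes in the Kai1-/- library. Hs6st2, a relative from the wider pathway list, had an RPKM of 8.25 and 7.08. The RPKM of Hs6st1 was 0.712 times that of Hs6st2 in WT and 0.473 times in Kai1-/- cells, with counting intervals from 0.643 to 0.789 and from 0.413 to 0.539.

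Sulf1 and Sulf2 encode the extracellular 6-O-endosulfatases, and SULF1 is known for dampening FGF and VEGF signaling by altering the chains that hold these factors. Sulf1, on chromosome 1 from 12708626 to 12850452 of mm9, measured 35.1 RPKM in WT and 9.97 RPKM in Kai1-/- cells. These values correspond to about 4567 and 1173 reads. The log2 ratio was -1.81, with a counting interval from -1.91 to -1.72, and 2.81% of all genes kept had a lower ratio. As deposited, Sulf1 was the only one of the 10 genes whose interval lay wholly past the 2-fold line, while Ext1 moved further past it, to -1.52, with library sums made equal.

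Sulf2, on chromosome 2 from 165898589 to 165981163, measured 26.4 RPKM in WT and 34.9 RPKM in Kai1-/- cells. Its log2 ratio was 0.40 with a counting interval from 0.34 to 0.47, but it was -0.08 with library sums made equal and -0.10 with the libraries scaled to Gapdh. Sulf2 lay above the median of all genes kept, and 69.9% of genes kept had a lower ratio. A scaling of the libraries shifts Sulf2 and that median together, so it could not show whether this order is robust. Its exons share 154 bases with Ncoa3 on the opposite strand, which had an RPKM of 3.63 in WT and 3.48 in Kai1-/- cells, and whether reads were counted by strand is not given in the sources used here.

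Sulf1 made up 57.1% of the summed RPKM of both Sulf genes in WT cells, with a counting interval from 56.0% to 58.2%. In Kai1-/- cells it made up 22.2%, with an interval from 21.1% to 23.4%. The more abundant Sulf transcript was thus Sulf1 in WT and Sulf2 in Kai1-/- cells, whatever the scaling of the libraries. The summed RPKM of both was 61.5 in WT and 44.8 in Kai1-/- cells, 72.9% of WT. The sum of Hs6st1 and Hs6st2 was 14.1 and 10.4, 73.8% of WT. The ratio of the Sulf sum to the Hs6st sum, chosen after the values were seen, was 4.35 in WT and 4.30 in Kai1-/- cells, with counting intervals from 4.12 to 4.59 and from 4.03 to 4.59. At this depth no difference in that ratio was detectable, although the share of Sulf1 within it differed.

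**Figure D2:**
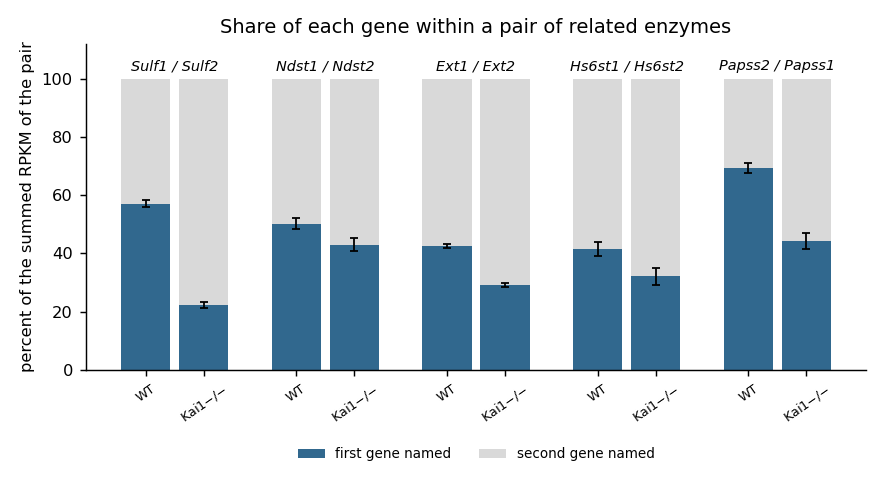
Percent of the summed RPKM of 5 gene pairs given by the gene named first (blue) and second (grey), in the WT and the Kai1-/- library; bars are 95% counting intervals. Sulf1 goes from 57.1% to 22.2% of its pair and Ext1 from 42.6% to 29.1%.

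The 8 synthesis genes ran from a log2 ratio of -1.04 to -0.19 with a median of -0.41. All 8 were below 0 as deposited, as were 4522 of the 10068 genes kept. Their summed RPKM was 169 in WT and 121 in Kai1-/- cells, 71.8% of WT, which is close to the 72.9% of the Sulf genes. Within the sum over all 10 genes, Sulf1 went from 15.2% to 6.00% and Ext1 from 23.9% to 16.1%, while Ext2 went from 32.1% to 39.1%. These shares are also independent of library scaling.

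**Figure D3:**
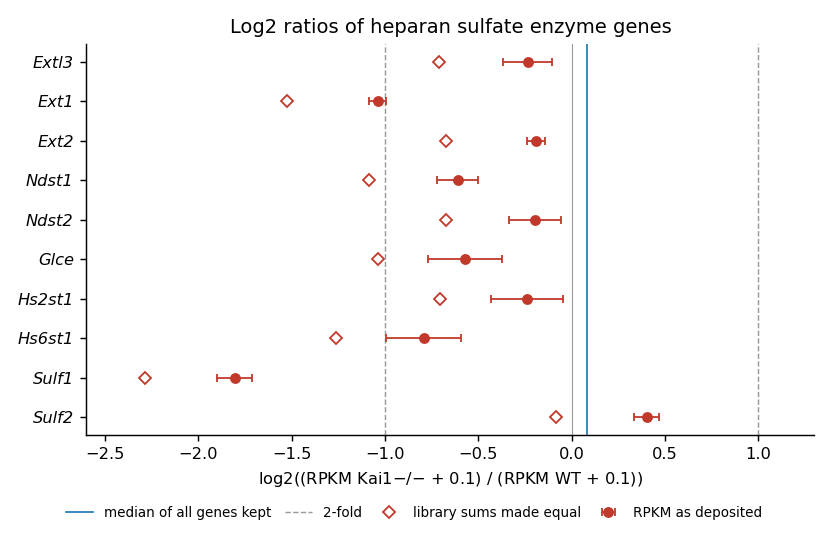
Log2 ratio of Kai1-/- to WT for the 10 genes, as deposited (filled circles, 95% counting intervals) and with library sums made equal (open diamonds); the blue line is the median of all genes kept, 0.08, as deposited, and dashed lines mark 2-fold. Making the sums equal moves all genes to the left, so that Sulf2 goes from 0.40 to -0.08 and the number of the 10 past the lower 2-fold line from 2 to 5, beside 7.81% and 18.0% of all genes kept.

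The order of levels in WT ran from Ext2 through Ext1, Sulf1, Sulf2, Ndst1, Ndst2, Extl3, Hs6st1 and Glce to Hs2st1. Counting intervals of neighbours overlapped for Ndst1 and Ndst2, for Extl3 and Hs6st1, and for Glce and Hs2st1. In Kai1-/- cells Sulf2 stood above Ext1, Ndst2 above Ndst1 and Hs2st1 above Glce. There the intervals overlapped between Hs6st1 and Hs2st1 and between Hs2st1 and Glce. The polymerase and Sulf genes thus held the top 4 places in both libraries, with Sulf1 in Kai1-/- cells only a little above Ndst2.

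**Figure D4:**
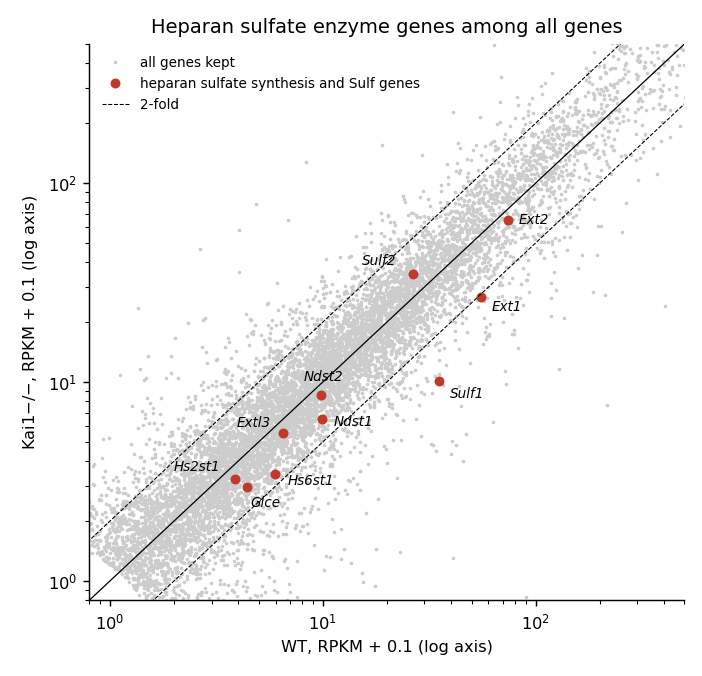
RPKM + 0.1 of all genes kept (grey) in the WT library (x) and the Kai1-/- library (y), both on log axes cut to the range around these genes, with the 10 genes in red; the solid line is equality and dashed lines are 2-fold. Sulf1 lies well below the lower 2-fold line and Ext1 on it, and Sulf2 is the one red point above equality with the values as deposited.

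All 10 genes have long transcripts, and the ratio varied with length across the genes kept. In 5 equal groups ranked by the longest annotated transcript, 6 of the 10 genes fell in the fourth and 4 in the fifth group. The median log2 ratio was 0.26 in the group of shortest transcripts, 0.01 in the fourth and -0.04 in the fifth. The median of the 10 genes, -0.41, was lower than that of either group that holds them. Whether transcript length has a part in these ratios was not tested.

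The genes with values most like those of Sulf1, by Euclidean distance in log2(RPKM + 0.1) over both libraries, were Adra1b, Ldhb, Gdf15, Ctsk and Creld1. Their distances ran from 0.0324 for Adra1b, an alpha-adrenergic receptor with an RPKM of 34.7 in WT and 10.2 in Kai1-/- cells, to 0.194 for Creld1. A likeness over 2 libraries means a similar level and ratio and no more.

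The other enzymes of the pathway were taken from 4 lists with 42 genes, of which 26 were kept. Of these, 4 lay past 2-fold on the lower side and 0 on the higher side, against the 7.81% and 7.98% of all genes kept. Their median log2 ratio was -0.27, and 21 of 26 were below the median of all genes kept.

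The linker enzymes build the short sugar bridge between core protein and chain. All 6 genes kept were within 2-fold, with log2 ratios from -0.36 to -0.01. The highest was B3gat3, the glucuronyltransferase that completes the linker, with an RPKM of 44.7 in WT and 34.8 in Kai1-/- cells. Their median was -0.20 as deposited, -0.66 with library sums made equal and -0.68 with Gapdh made equal, with none past 2-fold under either.

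Of 13 other chain enzymes only Hs6st2 and Extl2 were kept. The Hs3st genes encode the 3-O-sulfotransferases, and the highest of these was Hs3st3a1 with an RPKM of 1.01 in WT and 0.690 in Kai1-/- cells. Extl2, which can stop the growing chain, had 6.66 in WT and 3.55 in Kai1-/- cells, a log2 ratio of -0.89. Extl2 and Hs3st3a1 are named after their values were seen.

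Sulfate reaches the Golgi as the activated donor PAPS, and the backbone sugars as UDP-sugars. Of 9 genes kept in this list, Papss2 and Ugdh were more than 2-fold lower and 0 higher, against 7.81% and 7.98% of all genes kept, and 5 had ratios above 0 as deposited. Papss2, a PAPS synthase, had an RPKM of 23.3 in WT and 8.21 in Kai1-/- cells, a log2 ratio of -1.49 with a counting interval from -1.63 to -1.39. Papss1, the other synthase, had 10.3 and 10.4 as deposited, and its log2 ratio, the median of this list, went from 0.01 to -0.47 with library sums made equal. Whatever the scaling, Papss2 went from 69.4% to 44.2% of the sum of both. Ugdh, which makes UDP-glucuronic acid, had 41.8 in WT and 19.9 in Kai1-/- cells, a log2 ratio of -1.07. Slc35b2, the Golgi PAPS transporter and the highest of the list by its mean, had 28.2 and 34.6, a log2 ratio of 0.30 that is smaller than the shift of all genes when library sums or Gapdh are made equal.

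The breakdown list holds the lysosomal enzymes, the heparanases and the sulfatase modifying factors. Of 9 genes kept, 2 were more than 2-fold lower, among them Idua, against 7.81% of all genes kept, and the median log2 ratio was -0.73. The count was 1 with a pseudocount of 1, beside 5.68% of all genes kept. With a mean RPKM of 5 or more, which fewer genes of the list reached, it was also 1, beside 5.37% of all genes at that filter. With library sums or Gapdh made equal it was 6, beside 18.0% and 18.4% of all genes kept. Idua, the iduronidase, had an RPKM of 5.56 in WT and 2.61 in Kai1-/- cells, and its exons overlap Dgkq and Slc26a1 on the opposite strand. Sumf1, which activates sulfatases and is named after its value was seen, had 24.4 in WT and 12.5 in Kai1-/- cells, a log2 ratio of -0.95.

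Chondroitin and dermatan sulfate are built from the same linker and donors. Of 12 genes kept in that list, 6 were more than 2-fold lower and 1 higher, against 7.81% and 7.98% of all genes kept, with a median log2 ratio of -0.74. With a mean RPKM of 5 or more, fewer genes of the list were kept, 2 of them lower and 1 higher. These counts stood beside 5.37% and 7.84% of all genes at that filter, and the median was -0.39. The chondroitin 4-O-sulfotransferases Chst11 and Chst12 had log2 ratios of -1.68 and -1.18, and the 6-O-sulfotransferase Chst7 had -2.24. Chpf and Csgalnact1 had -1.08 and -1.10, and Chst15 stood at 46.5% of its WT level. Chpf2, which takes part in chondroitin chain lengthening, had an RPKM of 40.9 in WT and 227 in Kai1-/- cells, a log2 ratio of 2.47. Its exons share 2466 bases with Smarcd3 on the opposite strand, which had 18.9 and 17.8, and 98 bases with a microRNA gene on the same strand, so its value is uncertain.

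Core proteins carry the chains. Of 10 kept, 4 were more than 2-fold lower and 0 higher, against 7.81% and 7.98% of all genes kept, with a median log2 ratio of -0.70. With a mean RPKM of 5 or more, fewer genes of the list were kept, 2 of them lower and 0 higher. The shares of all genes at that filter were 5.37% and 7.84%. The median was -0.45 with that filter, -0.09 without a filter and -1.18 with library sums made equal. Glypicans Gpc4, Gpc6 and Gpc1 had ratios of -1.69, -1.61 and -1.38 and Col18a1 had -1.06. Sdc1, the highest of the list, had an RPKM of 58.7 in WT and 89.6 in Kai1-/- cells, a log2 ratio of 0.61 as deposited. Making library sums or Gapdh equal took the median of all genes kept from 0.08 to -0.39 or -0.41, a shift that lowers Sdc1 likewise.

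**Figure D5:**
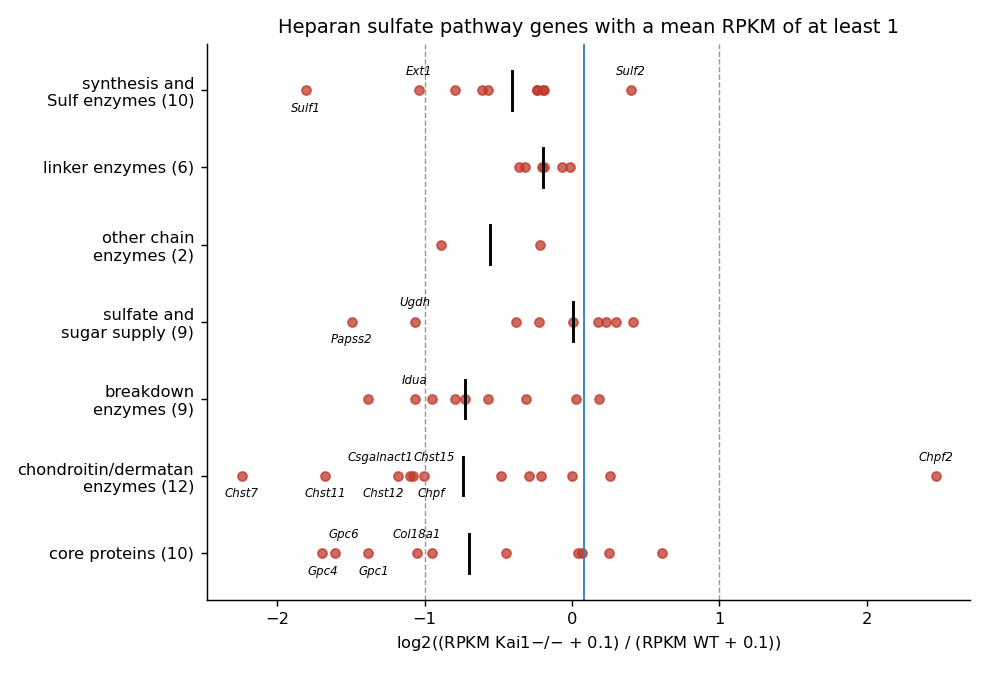
Log2 ratio of Kai1-/- to WT for each gene with a mean RPKM of at least 1 (points) in 7 lists, with the number kept in parentheses; black bars are list medians, the blue line the median of all genes kept and dashed lines 2-fold. Most genes past 2-fold and Sulf2 are named, the medians run from -0.74 for chondroitin and dermatan sulfate enzymes to 0.01 for sulfate and sugar supply, and Chpf2 at 2.47 is the one gene past the upper line.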

How the data were processed

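RNA from WT and Kai1-/- perivascular cells was sequenced, with 1 library per genotype. Alignment to mm9 by the authors used TopHat 2.0.9 together with Bowtie, and they deposited 1 RPKM value per RefSeq gene and library. Cufflinks is named in the submitters' processing notes without a version. Strandedness and depth are not given in the sources used here.

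Rows without a symbol (38 of 20462) were left out and 153 repeated symbols averaged. Genes averaging 1 RPKM or more were kept, and the log2 ratio used a pseudocount of 0.1 RPKM, which understates changes of low genes. Since neither genotype has a replicate, no test was run, and a gene is counted as lower or higher past 2-fold. The 10 genes and the lists were chosen with earlier results of these data known. Genes named were the 10, list genes kept and past 2-fold, the highest gene of each list, the 5 nearest to Sulf1, Cd82, Gapdh and markers. A gene that this rule names is not reported here.

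Reads were estimated from the steps of RPKM values below 0.5 in genes with a single transcript over 800 bases (GENCODE M1, NCBIM37, the same build as mm9). With a fragment length of 200 bases in both libraries, 80.8% and 78.8% of the values came within 0.15 of a whole number of reads, against 30% without steps. The read number of a gene was taken from its RPKM and its longest annotated transcript. The 95% intervals (exact binomial for ratios and shares, exact Poisson for levels, and a log-normal approximation for the ratio of sums) cover counting error only. The fold count and the step fit were tested on simulated data. Alternatives were other pseudocounts, scalings and filters. Python 3.11.15, numpy 2.4.6, pandas 2.3.3, scipy 1.17.1 and matplotlib 3.10.9 were used.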

Additional observations from a re-analysis of the deposited data

How the results depend on the processing

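No paired analysis was possible because WT and Kai1-/- cells have a single library each, and none could be left out. The scaling of the libraries was the choice that moved the results most. The median log2 ratio of all genes kept was 0.08 as deposited, -0.39 with library sums made equal and -0.41 with scaling to Gapdh, whose own log2 ratio was 0.50. These shifts move all genes alike. With library sums made equal, 5 of the 10 genes were more than 2-fold lower, beside 18.0% of all genes kept, and their median was -0.87, while 9 of the other 26 enzymes were lower with a median of -0.75. With Gapdh the counts were also 5, beside 18.4% of all genes kept, and 9, and the medians -0.89 and -0.76. The genes added to Sulf1 and Ext1 were Ndst1, Hs6st1 and Glce. Relative to the median of all genes kept, the median of the 10 genes ranged from -0.50 to -0.40 over the settings that keep all 10, and was -0.37 over the 7 kept with a mean RPKM of 5 or more. Without a filter on RPKM, 8 of the other enzymes were lower and 1 higher, beside 9.29% and 5.96% of all 20211 genes. Over 8 alternatives, Sulf1 ranged from -2.30 to -1.72 and Ext1 from -1.54 to -1.02, past 2-fold in each. Sulf2 ranged from -0.10 to 0.40, below 0 in 2. Each scaling tried lowered the ratios of all genes, so only the pseudocount of 1 RPKM could have brought Sulf1 or Ext1 back within 2-fold. The other 7 genes stayed below 0 in each alternative, where the scalings could only lower them further. The estimated reads limit Hs6st1, Glce and Hs2st1, with 387 reads or fewer in the Kai1-/- library.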
